A study of Homo sapiens with 6 samples.

Results

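Ribosome biogenesis and nucleolar factors were examined in U-87 glioma cells after knockdown of P68. The set held 36 listed genes, and 33 of them had at least 1 probe set naming that gene alone, out of 18417 genes measured in that way. NOP56 and PPAN were represented only by probe sets that also name other genes, and GNL3 by no probe set in the annotation used, so these 3 genes were not analysed here. Where a gene had several probe sets, the one brightest on average was used. U-87 is a long-established line of human glioma cells. P68 is an RNA helicase of the DEAD-box family, and DDX5 is its gene. The 3 knockdown arrays came from U-87 cells labelled P68 knockdown and the 3 wild-type arrays from U-87 cells labelled P68 wild type, all grown in DMEM with serum. Per the labels, cells received siP68, an siRNA, or NC, an abbreviation that the labels neither spell out nor link to the wild-type arrays. Whether replicates are separate cultures is not stated, so p-values reflect the spread among these arrays alone, and that spread may be technical.

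Ribosomes are assembled in the nucleolus, where RNA polymerase I transcribes a long precursor of ribosomal RNA. Small nucleolar ribonucleoproteins (snoRNPs) modify this precursor, box C/D particles by methylation and box H/ACA particles by pseudouridylation. The small subunit processome and a series of large subunit factors then fold and cleave it and add ribosomal proteins. Growing tumour cells usually run this pathway at a high rate, with MYC as a main activator that binds E-box sequences. P68 has been found to bind fibrillarin, the box C/D methyltransferase, and to take part in processing of ribosomal RNA together with its paralog DDX17.

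The start sites of these genes were searched for short motifs, first the E-box CACGTG, which reads the same on both strands and is the sequence bound by MYC. The windows examined run from 250 bases before to 50 bases after each start in RefSeq (GRCh38.p14), and 31 of the 36 genes had 1 or more. CACGTG was present for 14 of the 31 genes (45.2%), against 10.9% of 15843 protein-coding genes and 7.26% of all 35116 windows. It began within 50 bases of the start for 13 of the 31 genes (41.9%), against 4.4% of protein-coding genes. The 12 measured genes with this placement are shown with 10 flanking bases on each side where the window allows, 5′ to 3′ on the strand of the gene, with the E-box in capitals.
FBL, chr19:39846358-39846383, minus strand: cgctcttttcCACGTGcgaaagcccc
GAR1, chr4:109815783-109815808, plus strand: gccagaggggCACGTGgcgccggtga
WDR43, chr2:28894660-28894685, plus strand: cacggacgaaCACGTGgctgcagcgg
UTP4, chr16:69132623-69132648, plus strand: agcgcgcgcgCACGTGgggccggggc
UTP20, chr12:101280085-101280110, plus strand: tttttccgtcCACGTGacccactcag
NOP14, chr4:2963376-2963401, minus strand: cgcggcccggCACGTGtcttagggta
RRP9, chr3:51941894-51941919, minus strand: gttcagctgcCACGTGagttctgcgg
IMP4, chr2:130342902-130342927, plus strand: ctcccggaccCACGTGgaagcggcac
BYSL, chr6:41921517-41921542, plus strand: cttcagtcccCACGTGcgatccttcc
LTV1, chr6:143843356-143843381, plus strand: cctggggctgCACGTGtggtgaggcc
NOP2, chr12:6568242-6568266, minus strand: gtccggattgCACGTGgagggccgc
PES1, chr22:30591882-30591907, minus strand: cttggcagggCACGTGcgggaggaag
Beyond the 6 shared bases these stretches differ, and in each the motif begins between 16 bases before and 36 bases after the listed start. These are letter matches and do not show binding. Counted by window, CACGTG stood in 37.8% of the 37 windows of these genes against the 7.26% of all windows. Of the further genes listed for this pathway, 117 had windows. CACGTG was present for 25.6% of these 117 genes and began within 50 bases of the start for 19.7%. The other motifs were searched on both strands. CGGAAG was present for 14 of the 31 genes (45.2%) against 29.7% of protein-coding genes, and in 43.2% of their windows against 19.5% of all windows. It was more frequent among the 117 further genes (63.2%). GGGCGG was present for 24 genes (77.4%) against 64.3%, and in 73% of windows against 45%. Within 50 bases of the start it was less frequent, with 25.8% of the 31 genes against 39.6% of protein-coding genes. The palindromic NRF1 motif was present for 2 genes (6.45%) against 1.99%, and in 5.41% of windows against 1.24%. TATAAA was present for 2 genes (6.45%) against 12.4%, and in 5.41% of windows against 11.5%. Among the 117 further genes GGGCGG was present for 64.1%, the NRF1 motif for 5.98% and TATAAA for 4.27%. A window can hold several of them.

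DDX5, the targeted gene, gave log2 signals of 9.47, 9.79 and 9.91 on knockdown replicates 1, 2 and 3 and 10.09, 10.25 and 10.30 on the wild-type replicates, so the groups did not overlap. Its knockdown signal was 71.2% of the wild-type signal. The log2 difference of DDX5 was -0.49 ± 0.13 (SE) with an adjusted p of 0.902 (limma), so the test did not call the targeted gene. An exact permutation test (two-sided) of DDX5 gave p = 0.1, the smallest value that groups of 3 can reach. DDX17 gave 8.63, 7.65 and 7.90 on the knockdown arrays and 8.17, 7.80 and 7.80 on the wild-type arrays, with the groups overlapping. Array medians over 29096 probe sets lay between 4.32 and 4.37. No detection calls were used, so genes in the dimmest 40% by mean signal may be at background. This range held 4 of 10 markers of glioma lines and glia (CD44, TNC, S100B and SOX2), 4 of 4 leukocyte, 2 of 5 neuronal, 1 of 4 endothelial and 2 of 3 epithelial markers. VIM, an intermediate filament gene of mesenchymal and glial cells, ran from 7.25 to 7.94, and the leukocyte gene PTPRC from 2.49 to 2.91.

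No ribosome biogenesis gene passed the test between knockdown and wild type. Across the 18417 genes, limma called 0 genes (0%) at an adjusted p under 0.05, and the 33 genes had adjusted p-values from 0.902 to 0.995 (Benjamini-Hochberg over all genes, limma). At an unadjusted p under 0.05 limma counted 937 of all genes (5.09%). In that count 1 of the 33 genes was lower in the knockdown, POLR1B, against 2.06% of all genes, and 0 were higher, against 3.02%. Centring the arrays on their medians turned the split of this background from 380 genes lower and 557 higher to 484 lower and 443 higher. The groups did not overlap for 2 of the 33 genes, both lower in the knockdown (POLR1B and NPM1), against 4.15% of all genes, and for 0 higher, against 5.98%. These shares are near the background.

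The log2 differences, knockdown minus wild type, were small and more often below 0 than above it. Of the 33 genes, 23 lay below 0 (69.7%), against 46.5% of all genes tested, and 10 lay above 0, against 52.5%. The median difference of the 33 genes was -0.063, against 0.01 for all genes. With each array centred on its median, 26 of the 33 lay below 0, against 51.7% of all genes. After repeated quantile normalisation 25 did (all genes 49.7%), and after cyclic loess also 25 (all genes 50.4%). The count and the median followed single arrays. Without wild-type replicate 2, 15 of the 33 genes lay below 0 and the median was 0.013. Without wild-type replicate 1, 27 lay below 0 and the median was -0.14. Leaving out knockdown replicate 1, 2 or 3 gave -0.052, -0.072 and -0.097, and leaving out wild-type replicate 3 gave -0.05. The 95% confidence intervals of all 33 genes lay between -0.78 and 0.54, inside a 2-fold change in either direction. For 25 of the 33 the interval lay within 0.5 on the log2 scale, a 1.41-fold change, on both sides of 0. The same held for 15586 of all 18417 genes, a larger share. These intervals are for single genes and are not adjusted for their number.

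**Figure D1:**
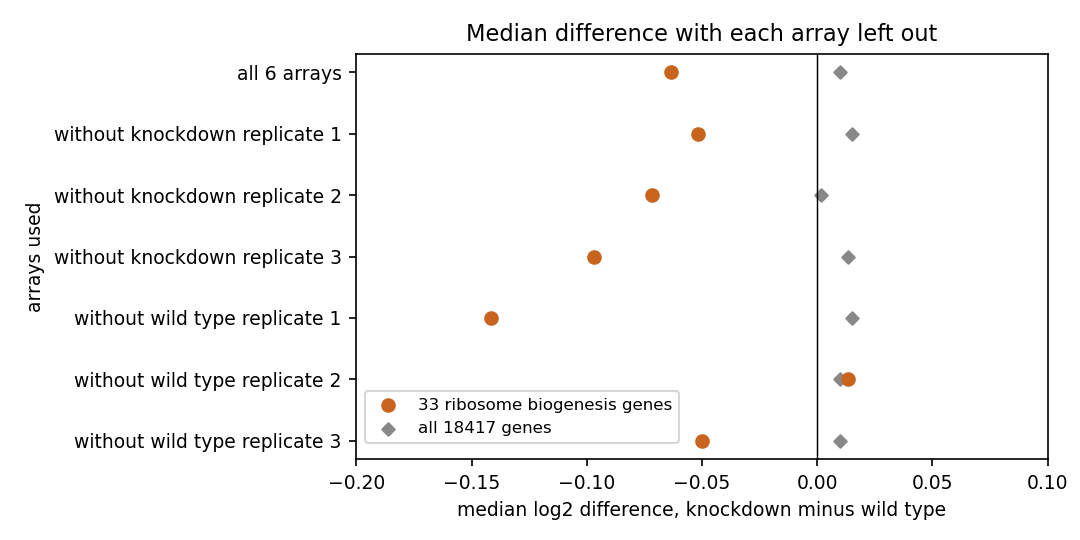
Median log2 difference (x axis, knockdown minus wild type) of the 33 ribosome biogenesis genes (circles) and of all 18417 genes (diamonds), with all 6 arrays and with each array left out in turn (y axis). The circles lie at -0.14 when wild-type replicate 1 is left out and at 0.013 when wild-type replicate 2 is, while the diamonds stay between 0.0017 and 0.015.

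Most of the 33 genes were low together on 3 of the arrays and high together on the other 3, and this pattern crossed the groups. On each array the signal of each gene was set against its own mean over the 6 arrays. On wild-type replicate 1, 26 of the 33 genes lay below their mean (78.8%), against 51% of all genes. On wild-type replicates 2 and 3 only 7 and 9 of the 33 lay below (21.2% and 27.3%), against 52.8% and 51.9% of all genes. Among the knockdown arrays, replicates 1 and 2 had 24 and 23 genes below their mean (72.7% and 69.7%), against 50.8% and 45.9% of all genes. Knockdown replicate 3 had 10 below (30.3%), against 49.8%. Knockdown replicates 1 and 2 and wild-type replicate 1 were thus the low arrays, and the other 3 were the high arrays. In 2 role groups the medians departed from this order. The 3 RNA polymerase I genes had 0.065 on wild-type replicate 1 and -0.12 on knockdown replicate 3. The 6 large subunit genes had 0.054 on knockdown replicate 1 and -0.064 on knockdown replicate 3. The medians of the other role groups followed it.

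The median deviation of the 33 genes was -0.078, -0.07 and 0.067 on knockdown replicates 1, 2 and 3 and -0.098, 0.095 and 0.09 on the wild-type replicates. The SD between arrays of these medians was 0.081 on the knockdown arrays and 0.11 on the wild-type arrays, larger than the median difference of -0.063 between the groups. Over all genes the array medians stayed between -0.01 and 0.017. Across the 33 genes, the median absolute difference between 2 arrays was 0.10 for wild-type replicate 1 against either knockdown replicate 1 or 2, and also 0.10 for knockdown replicate 3 against wild-type replicate 3. Within the wild type it was 0.22 for replicates 1 and 2, 0.19 for 1 and 3 and 0.14 for 2 and 3. Among the knockdown arrays it was 0.11 for replicates 1 and 2, 0.23 for 1 and 3 and 0.19 for 2 and 3. Knockdown replicate 2 and wild-type replicate 2 lay 0.28 apart, the most of all pairs. No gene of the 33 was highest on wild-type replicate 1, whereas 12 were highest on wild-type replicate 2 and 9 on wild-type replicate 3.

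**Figure D2:**
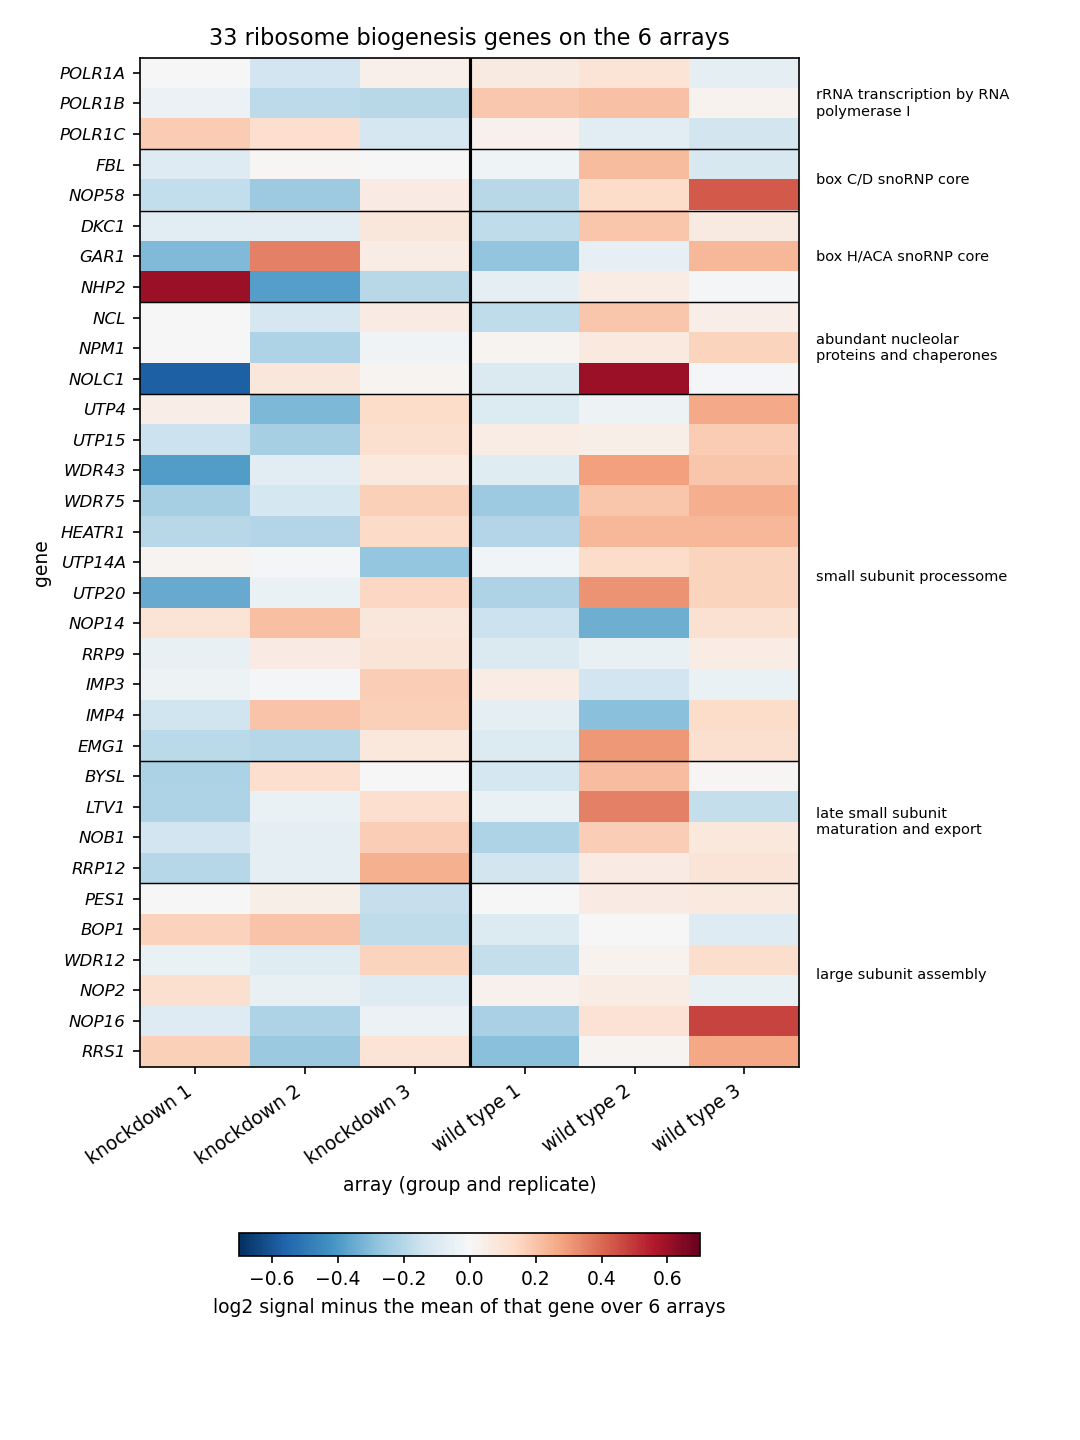
Log2 signal of each of the 33 genes (rows, grouped by role) on each array (columns), shown as the difference from the mean of that gene over the 6 arrays (red above, blue below). Blue is most frequent on knockdown replicates 1 and 2 and wild-type replicate 1, where 24, 23 and 26 of the 33 genes lay below their mean.

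The same 3 arrays were low and the same 3 high for the other ribosome biogenesis genes taken as a whole list, by smaller medians. Of 137 further genes listed for this pathway, 131 were measured. Of these, 76, 80 and 58 lay below their mean on knockdown replicates 1, 2 and 3 (58%, 61.1% and 44.3%) and 81, 47 and 38 on the wild-type replicates (61.8%, 35.9% and 29%). Their medians were -0.032, -0.042 and 0.018 on the knockdown arrays and -0.04, 0.067 and 0.065 on the wild-type arrays. The difference between this list and the 33 genes was not tested. By role, the processome and exosome genes followed this order. The 19 genes of RNA polymerase I and its factors had 0.028 on knockdown replicate 1, 0.018 on wild-type replicate 1 and -0.035 on wild-type replicate 2. On knockdown replicate 3 the 41 large subunit genes had -0.012 and the 8 late small subunit genes -0.0375. The 10 snoRNP genes had 0.0092 on wild-type replicate 1.

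Several other measures were set beside this pattern, and their part in it was not tested. The overall array medians were 4.33, 4.37 and 4.34 on the knockdown arrays and 4.33, 4.32 and 4.34 on the wild-type arrays. The 19 proliferation genes followed another order, with median deviations of 0.038, -0.083 and -0.068 on the knockdown arrays and 0.13, -0.025 and -0.027 on the wild-type arrays. Wild-type replicate 1, lowest for the ribosome biogenesis genes, was highest for the proliferation genes. The 12 genes of the MYC network and mTOR stayed between -0.0067 and 0.013 in median on all arrays. MYC itself gave 5.64, 5.17 and 5.50 on the knockdown arrays and 5.48, 5.49 and 5.62 on the wild-type arrays, a log2 difference of -0.093 ± 0.13 (SE). The 13 measured genes with an E-box in their start-site windows had a median difference of -0.07 with 9 below 0, and the 15 measured genes whose windows lacked one had -0.063 with 11 below 0.

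**Figure D3:**
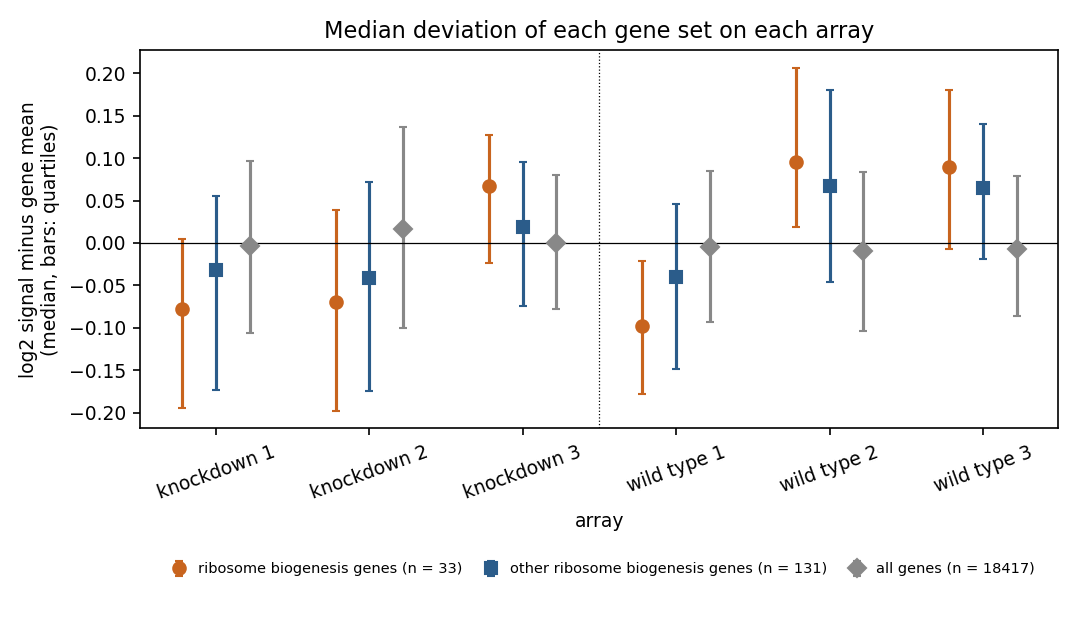
Median deviation from the gene mean (y axis, log2) on each array (x axis) for the 33 ribosome biogenesis genes, 131 other ribosome biogenesis genes and all 18417 genes; bars run from the lower to the upper quartile over genes. The circles lie at -0.078, -0.07 and -0.098 on knockdown replicates 1 and 2 and wild-type replicate 1 and between 0.067 and 0.095 on the other arrays.

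RNA polymerase I makes the ribosomal RNA precursor, and its subunit POLR1B was the gene with the smallest p-value of the set. POLR1B, one of the large subunits that form the active centre, gave log2 signals of 3.14, 3.00 and 2.99 on the knockdown arrays and 3.37, 3.39 and 3.21 on the wild-type arrays. All 3 knockdown arrays lay below all 3 wild-type arrays. Its means were 3.04 ± 0.084 for the knockdown and 3.32 ± 0.099 for the wild type (SD, n = 3 each), and the knockdown signal was 82.4% of the wild-type signal. The log2 difference was -0.28 ± 0.10 (SE) with a 95% confidence interval of -0.51 to -0.051 and an adjusted p of 0.902 (limma). An exact permutation test (two-sided) gave p = 0.1, and no smaller value can be reached with groups of 3. With single arrays left out the difference stayed between -0.34 and -0.25. Its unadjusted p of 0.0214 became 0.0659, 0.0613 and 0.0731 in limma without knockdown replicate 3, wild-type replicate 1 and wild-type replicate 2, in that order. POLR1B was among the dimmest 40% of genes. The largest subunit, POLR1A, gave -0.063 ± 0.10 (SE), and POLR1C, shared with RNA polymerase III, gave 0.12 ± 0.11 (SE), so the 3 subunits did not share a direction. The stretch upstream of the first listed POLR1B start is shown because this was the gene with the smallest p-value, with the motif CGGAAG in capitals.
POLR1B, chr2:112541891-112541950, plus strand: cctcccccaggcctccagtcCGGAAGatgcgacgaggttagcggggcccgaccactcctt
The motif began 125 bases before that start.

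The box C/D proteins carry the methyltransferase to its sites. FBL, the methyltransferase fibrillarin, gave 5.94, 6.04 and 6.03 on the knockdown arrays and 6.00, 6.25 and 5.92 on the wild-type arrays. Its groups overlapped, and the log2 difference was -0.053 ± 0.11 (SE), with a 95% confidence interval of -0.30 to 0.20. NOP58, a core protein that holds the guide RNA, gave 5.61, 5.53 and 5.84 on the knockdown arrays and 5.59, 5.91 and 6.21 on the wild-type arrays. Wild-type replicate 1 lay among the low knockdown values, and wild-type replicate 3 was the highest array. The log2 difference of NOP58 was -0.24 ± 0.16 (SE), and it was -0.40 with wild-type replicate 1 left out and -0.09 with wild-type replicate 3 left out.

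The box H/ACA proteins differed in opposite directions and by little. DKC1, the pseudouridine synthase dyskerin, gave 4.43, 4.43 and 4.59 on the knockdown arrays and 4.33, 4.70 and 4.57 on the wild-type arrays, a log2 difference of -0.05 ± 0.12 (SE). GAR1, a core protein needed for release of the modified RNA, gave 5.89, 6.55 and 6.25 on the knockdown arrays and 5.92, 6.14 and 6.43 on the wild-type arrays, a difference of 0.067 ± 0.18 (SE). The lowest array of each group was replicate 1, and the groups overlapped widely. NHP2, which binds the same particle, gave 7.03, 6.04 and 6.23 on the knockdown arrays and 6.36, 6.48 and 6.42 on the wild-type arrays. Knockdown replicate 1 stood above all other arrays, while the other knockdown arrays lay below all wild-type arrays. The log2 difference of NHP2 was 0.013 ± 0.21 (SE), became -0.003 with each array centred on its median and -0.051 with array weights, and was -0.285 with knockdown replicate 1 left out and 0.21 with knockdown replicate 2 left out. A further probe set for NHP2 lay between 3.68 and 3.78 on all 6 arrays and did not show the high value of knockdown replicate 1. The reference gene table holds 2 pseudogene symbols derived from NHP2, and near-identical copies can share probe signal.

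The abundant nucleolar proteins NPM1, NOLC1 and NCL lay below 0 in the difference with all 6 arrays, though NCL did not with either of 2 arrays left out. NPM1, a nucleolar histone and ribosome chaperone, gave 10.86, 10.65 and 10.84 on the knockdown arrays and 10.88, 10.93 and 11.02 on the wild-type arrays. The groups did not overlap, though knockdown replicate 1 lay just under wild-type replicate 1. The log2 difference was -0.16 ± 0.10 (SE), with a 95% confidence interval of -0.39 to 0.072 and an adjusted p of 0.902 (limma). After cyclic loess it was -0.042, after repeated quantile normalisation -0.027, and the groups then overlapped, and without knockdown replicate 2 it was -0.093. The other 3 probe sets of NPM1 gave differences of -0.11, -0.16 and -0.20, and the reference table holds 50 pseudogene symbols derived from NPM1. Those at -0.16 and -0.20 ranked the 6 arrays in the same order as the probe set used, so they may not be separate measurements. The probe set at -0.11 ran from 4.38 to 4.82, with overlapping groups and its highest value on knockdown replicate 3. NOLC1, a chaperone of snoRNPs, gave 3.79, 4.44 and 4.38 on the knockdown arrays and 4.26, 4.96 and 4.35 on the wild-type arrays. Its value came from knockdown replicate 1, the lowest array, and wild-type replicate 2, the highest. The log2 difference of -0.32 ± 0.21 (SE) was the largest in size of the 33 genes, and it shrank to -0.11 when the former array was left out and to -0.10 when the latter was. NCL, the RNA-binding protein nucleolin, gave -0.043 ± 0.12 (SE), which was 0.0033 with knockdown replicate 2 left out and 0.043 with wild-type replicate 2 left out.

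The small subunit processome cleaves and folds the part of the precursor that becomes the small subunit. Of its 12 genes, 8 lay below 0 and 4 above, with a median of -0.15. Of these, 5 genes belong to the UTP-A subcomplex of the processome, which joins the nascent transcript first. All 5 lay below 0 with all 6 arrays, from -0.27 to -0.093, and this subgroup was chosen after its values were seen. NOL11, a UTP-A gene among the further pathway genes, lay above 0 at 0.13 ± 0.13 (log2 difference ± SE) and was among the dimmest 40%. UTP4 rested on single arrays, with 0.04 when knockdown replicate 2 was left out and 0.017 when wild-type replicate 3 was. Among the 5 genes, WDR43 gave 4.99, 5.31 and 5.45 on the knockdown arrays and 5.30, 5.67 and 5.58 on the wild-type arrays. Wild-type replicate 1 fell within the knockdown range, and the log2 difference was -0.27 ± 0.14 (SE), or -0.14 without knockdown replicate 1. HEATR1 gave -0.18 ± 0.15, UTP15 -0.18 ± 0.12, WDR75 -0.13 ± 0.16 and UTP4 -0.093 ± 0.14 (log2 difference ± SE). Omitting wild-type replicate 1 moved HEATR1 to -0.32 and WDR75 to -0.29, while omitting wild-type replicate 3 moved them to -0.10 and -0.035. EMG1, a pseudouridine methyltransferase, gave -0.21 ± 0.13 (SE). UTP14A, a helicase cofactor, gave -0.18 ± 0.11 (SE), and the scaffold protein UTP20 gave -0.17 ± 0.16 (SE). With arrays omitted singly, EMG1 ran from -0.31 (wild-type replicate 1) to -0.11 (wild-type replicate 2), UTP14A from -0.23 (wild-type replicate 1) to -0.085 (knockdown replicate 3), and UTP20 from -0.32 (wild-type replicate 1) to -0.035 (knockdown replicate 1). The 4 genes above 0 were NOP14 at 0.26 ± 0.13, IMP4 at 0.15 ± 0.14, IMP3 at 0.087 ± 0.11 and RRP9 at 0.067 ± 0.10 (log2 difference ± SE). IMP3 and IMP4 act with MPP10, RRP9 is a protein of the U3 snoRNP, and NOP14 is a processome scaffold. Without wild-type replicate 2, IMP4 was 0.042 and NOP14 0.15, and without knockdown replicate 3 IMP3 was 0.022. None of the 12 genes had groups that did not overlap.

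The late small subunit factors complete maturation before and during export. All 4 lay below 0 by little, with a median of -0.045, but without wild-type replicate 2 all 4 lay above 0, from 0.013 (RRP12) to 0.062 (NOB1). LTV1, an assembly factor released late in maturation, gave 3.13, 3.30 and 3.46 on the knockdown arrays and 3.30, 3.70 and 3.18 on the wild-type arrays. Its groups overlapped, its log2 difference was -0.097 ± 0.15 (SE), and it was 0.057 without wild-type replicate 2, the highest array. BYSL, the mammalian bystin, gave -0.07 ± 0.13 (SE). NOB1, the endonuclease of the final cleavage, gave -0.02 ± 0.13, and the export factor RRP12 gave -0.013 ± 0.13 (log2 difference ± SE). With array weights NOB1 and RRP12 lay above 0, at 0.0074 and 0.046.

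The large subunit factors showed no common direction. Of the 6 measured, 3 lay below 0 and 3 above, with a median of -0.0083. NOP16 gave 4.45, 4.32 and 4.50 on the knockdown arrays and 4.31, 4.64 and 5.01 on the wild-type arrays. Wild-type replicate 3 was the highest array and wild-type replicate 1 the lowest. The log2 difference of NOP16 was -0.23 ± 0.16 (SE), with -0.40 when wild-type replicate 1 was left out and -0.052 when wild-type replicate 3 was. PES1, BOP1 and WDR12 form 1 complex that is needed for large subunit processing, and gave -0.083 ± 0.10, 0.12 ± 0.12 and 0.013 ± 0.12 (log2 difference ± SE). A further probe set for BOP1 gave 0.18. NOP2, an RNA cytosine methyltransferase, gave -0.02 ± 0.10, and RRS1, which helps to place the small ribosomal RNA of the large subunit, gave 0.0033 ± 0.16 (log2 difference ± SE). With each array centred on its median, after repeated quantile normalisation or after cyclic loess, WDR12 and RRS1 lay just below 0.

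**Figure D4:**
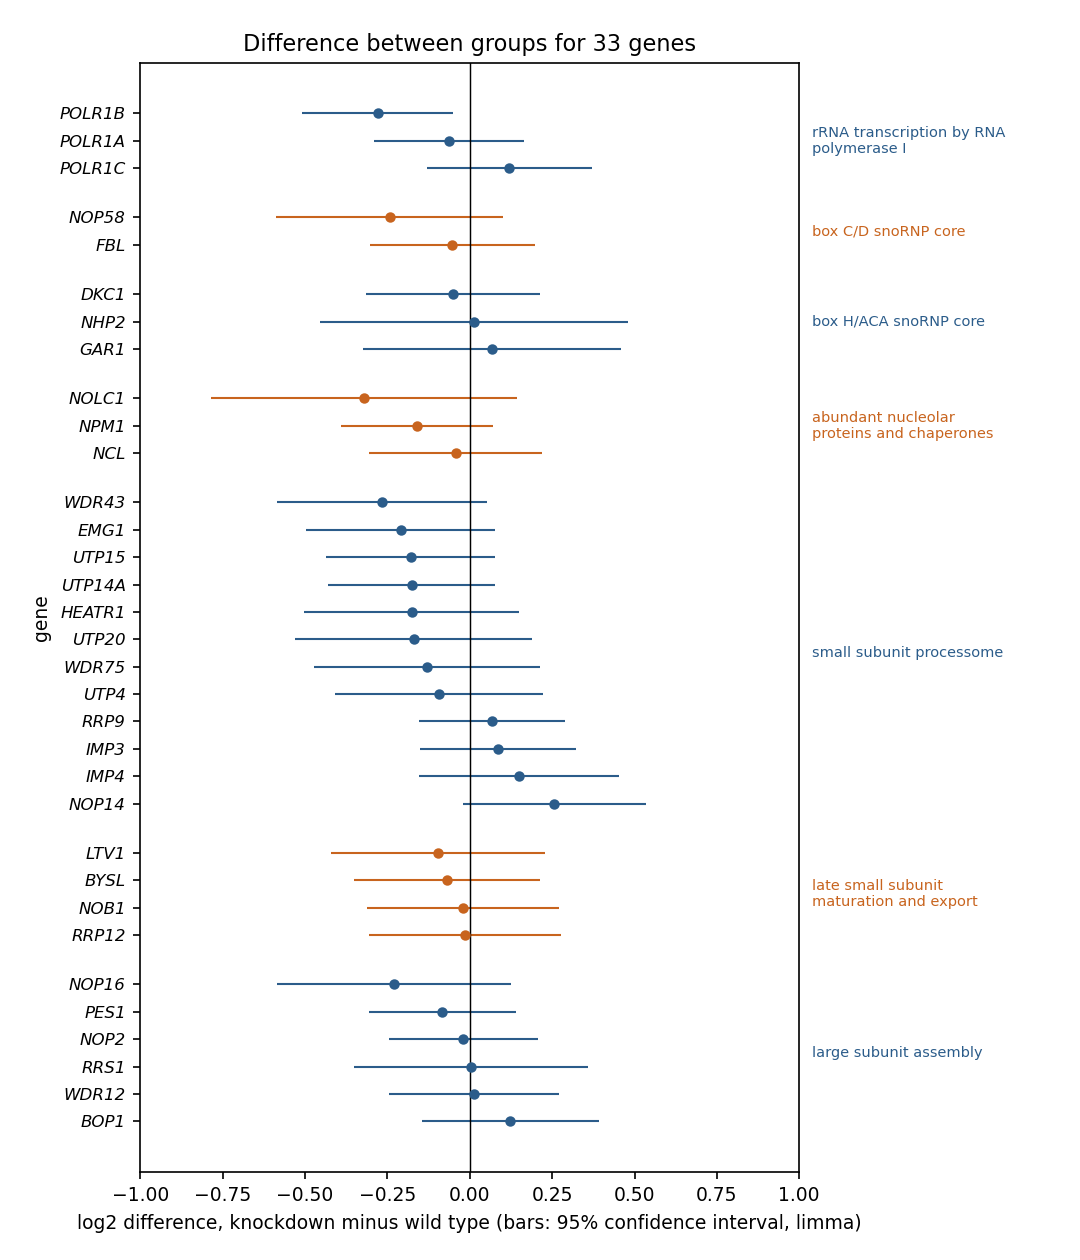
Log2 difference between knockdown and wild type (x axis) for each of the 33 genes (y axis), grouped by role; points are limma estimates from 3 arrays against 3 and bars are 95% confidence intervals. The interval lies wholly on one side of 0 only for POLR1B (-0.51 to -0.051), and all intervals lie between -0.78 and 0.54.

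The genes also varied among themselves in their spread within a group. The range over the 3 wild-type arrays had a median of 0.36 for the 33 genes, against 0.22 for all genes. Over the 3 knockdown arrays it was 0.31, against 0.26 for all genes. NOLC1 and NOP16 had the widest wild-type range at 0.70 each, and PES1 the narrowest at 0.07. In the knockdown NHP2 had the widest range at 0.99, and FBL the narrowest at 0.10.

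Among the 131 measured further genes of the pathway, 0 passed the adjusted threshold in limma. Of these, 86 lay below 0 (65.6%) and 45 above, with a median of -0.05. At an unadjusted p under 0.05, 5 were lower (3.82%) and 3 higher (2.29%), against 2.06% and 3.02% of all genes. The groups did not overlap for 6 genes lower in the knockdown (4.58%) and 6 higher (4.58%), against 4.15% and 5.98% of all genes. TSR1, a late small subunit factor, gave 5.75, 5.51 and 5.64 on the knockdown arrays and 5.90, 6.01 and 5.89 on the wild-type arrays, a log2 difference of -0.30 ± 0.10 (SE). RPF1, a large subunit factor, gave 4.18, 3.92 and 4.19 against 4.34, 4.38 and 4.45, a difference of -0.29 ± 0.11 (SE). For both genes the groups did not overlap. SDAD1, also of the large subunit, gave -0.32 ± 0.12 (SE) with overlapping groups.

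POLR1G, a subunit of RNA polymerase I, gave 4.98, 5.38 and 4.99 on the knockdown arrays and 4.44, 4.75 and 4.93 on the wild-type arrays, a log2 difference of 0.41 ± 0.15 (SE). It was higher on every knockdown array, whereas POLR1B of the same enzyme was lower on every knockdown array. EXOSC4 and EXOSC6, ring subunits of the RNA exosome that trims ribosomal RNA, gave 0.28 ± 0.12 and 0.24 ± 0.10 (log2 difference ± SE), and both were higher on every knockdown array. All of these had an adjusted p of 0.902 (limma). By role, 10 of 19 genes of RNA polymerase I and its factors lay below 0, 7 of 10 snoRNP genes, 23 of 31 processome genes, 6 of 8 late small subunit genes, 27 of 41 large subunit genes and 13 of 22 exosome and MRP RNase genes.

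Several of these genes carry small nucleolar RNAs in their introns. The reference table places 25 snoRNA genes inside 8 of the 36 genes, and 7 of the 25 had a probe set of their own. The strand of these snoRNAs was not used here. SNORD20, inside NCL, gave 2.07, 2.05 and 2.15 on the knockdown arrays and 2.10, 2.86 and 2.59 on the wild-type arrays, a log2 difference of -0.43 ± 0.17 (SE) which had an adjusted p of 0.902 (limma). Wild-type replicate 1 lay within the knockdown range, and all values were among the dimmest 40%. SNORD82 and SNORA75, also inside NCL, gave -0.20 ± 0.12 and -0.15 ± 0.15, SNORD57 and SNORA51 inside NOP56 gave -0.10 ± 0.15 and 0.14 ± 0.11, SNORD53 inside WDR43 gave -0.06 ± 0.098, and SNORD105 inside PPAN gave -0.073 ± 0.098 (log2 difference ± SE). Each of these 6 had overlapping groups.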

How the data were processed

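Total RNA of U-87 cells was measured on 6 Affymetrix arrays. The deposited values are log2 signals that the authors made with RMA, per the submitters' processing notes; the software, its version and the genome build were not given in the sources used here. RMA equalises probe signals between arrays before they are summarised, so a shift common to most genes may be reduced or lost. In the annotation 19460 probe sets had 1 symbol, 1754 had several and 7882 had none. All 33 measured genes were found by gene identifier in the RefSeq gene table (GRCh38.p14).

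Knockdown and wild type were compared on 18417 genes with limma 3.58.1 in R 4.3.3 (lmFit and eBayes, two-sided, group as the only term, no filter on dim probe sets), with Benjamini-Hochberg adjustment at 0.05 over all genes. The exact permutation tests used SciPy 1.17.1. The fit was tested on simulated data for this comparison on 18417 genes. In these data its recovery was 99.6% for 2-fold changes and 50.9% for 1.41-fold changes, and 6.33% of its calls were false. The simulated noise was normal and independent between genes, with known changes planted. Variation shared between genes on an array was not simulated, so recovery on the real arrays may be lower. On those, DDX5 was not called at a log2 difference of -0.49. The number of arrays limits the precision.

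The genes, role groups, further pathway genes and motifs were chosen with earlier results of these data known. Values on every array are given for the gene with the largest absolute difference in each role group and for the snoRNP core genes. They are also given for genes with an unadjusted p under 0.05 or groups that did not overlap. Of the further pathway genes the 3 with the smallest p in each direction are named, and NOL11 beside the UTP-A genes. DDX5, DDX17, MYC and snoRNA genes placed inside a listed gene are named too. The rule for those snoRNAs asked for the same strand, which the table does not give. Alternatives were array centring, repeated quantile normalisation, cyclic loess, removal of the dimmest 40% of genes, averaging of probe sets, a variance trend on intensity with robust estimation, weights for arrays, the replicate number as a block, an adjusted p under 0.01, and omission of each array in turn.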

Additional observations from a re-analysis of the deposited data

How the results depend on the processing

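The count of genes past the adjusted threshold was 0 under every alternative run, including a threshold of 0.01 and the replicate block. The number of the 33 genes whose groups did not overlap was 2 (all genes 10.1%). It was 1 after repeated quantile normalisation (all genes 10.6%), 1 after cyclic loess (10.8%) and 1 with the dimmest 40% of genes left out (10.5%), which leaves 27 of the 33 genes. With single arrays left out it ran from 2 to 12, the highest without wild-type replicate 1, where 22.6% of all genes did not overlap, since groups of 3 against 2 separate more often by construction. The number with an unadjusted p under 0.05 in limma was 1 (all genes 5.09%). It was 0 without the dimmest genes (all genes 5.13%), 2 with array weights (POLR1B and UTP14A; all genes 5.98%) and 3 with the replicate block (POLR1B, NOLC1 and WDR43; all genes 6.24%). With single arrays left out it ran from 0 without wild-type replicate 2 (all genes 2.95%) to 5 without wild-type replicate 1 (6.21%). The median difference of the 33 genes moved from -0.063 by less than 1 SD of the array medians (0.097) in each alternative run, yet with single arrays left out it ran from -0.14 to 0.013 and changed sign without wild-type replicate 2. Whether the replicate numbers pair the arrays was not settled. Deviations of same-numbered arrays from their group means correlated over all genes with r = 0.27, -0.027 and 0.13 for replicates 1, 2 and 3. Not every same-numbered pair was above 0.1. For arrays with different numbers r ran from -0.25 to 0.17.

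The sign of 20 of the 33 single differences never changed over the alternatives run, 14 below 0 and 6 above. It changed for the other 13, and the cause was not tested. With each array centred on its median NHP2 gave -0.0033, WDR12 -0.0033 and RRS1 -0.013. After repeated quantile normalisation WDR12 gave -0.0058 and RRS1 -0.013, and after cyclic loess -0.0071 and -0.015. With array weights NHP2 gave -0.051, RRS1 -0.019, NOB1 0.0074 and RRP12 0.046. With single arrays left out the log2 difference ran from -0.15 to 0.023 for BYSL, from -0.15 to 0.033 for DKC1, from -0.12 to 0.043 for FBL, from -0.093 to 0.24 for GAR1, from -0.20 to 0.057 for LTV1, from -0.14 to 0.043 for NCL and from -0.285 to 0.21 for NHP2. It ran from -0.13 to 0.062 for NOB1, from -0.08 to 0.02 for NOP2, from -0.14 to 0.083 for RRP12, from -0.14 to 0.14 for RRS1, from -0.18 to 0.04 for UTP4 and from -0.067 to 0.078 for WDR12.

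Signal over background sets a limit for the 6 of the 33 genes among the dimmest 40%: POLR1B, POLR1C, UTP15, HEATR1, UTP20 and LTV1.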
